A study of Mus musculus with 15 samples.

Results

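The genes described here are those named for proteins of the mitochondrial ribosome. They were taken as the genes whose single symbol in the array annotation starts with Mrpl or Mrps and a number, and 74 of the 12394 genes with a single symbol met this rule. Where several probe sets measured a gene, the one with the highest mean over the 15 arrays was used. Membership follows the symbol alone. Of the 74 genes, 49 were classed with the large subunit (Mrps30 and Mrps18a included, whose products sit there despite their names) and 25 with the small subunit. All other genes were classed with the subunit that their symbols name. By origin, 43 were classed as having a bacterial homologue, 28 as having none, and 3 (Mrps18a, Mrps18b and Mrps18c) as copies of 1 bacterial protein.

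The study asked how 5-azacytidine (AzaC), an inhibitor of DNA methylation, and valproic acid (VPA), an inhibitor of histone deacetylases, alter expression in the mammary gland. Female C57BL/6 mice received intraperitoneal AzaC, VPA or the vehicle PBS, glands were digested to purify mammary epithelial cells, and cRNA made from their mRNA was hybridised to 15 Affymetrix arrays. Arrays labelled pregnant (day 21) comprised 2 with PBS, 3 with AzaC and 3 with VPA. Arrays labelled virgin (9 weeks of age) comprised 2 with PBS, 3 with AzaC and 2 with VPA. Doses, injection times, pooling and the number of animals behind an array are not given in the sources used here, so p-values speak only to the scatter among these arrays, which may be technical. All values are the authors' signals on a scale taken as log2, so a difference of -1 is a halving.

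Mitochondria keep a small genome of their own that encodes core subunits of the respiratory chain. The mitochondrial ribosome translates those messages, and all of its proteins are encoded in the nucleus, made in the cytosol and imported. Its subunits are assembled with the help of dedicated GTPases, methyltransferases and proteases. In the mammary gland, secretory epithelium builds up mitochondria towards lactation, when milk synthesis draws on their energy. Nuclear genes for mitochondrial proteins are commonly controlled by the transcription factors NRF1, GABPA (an ETS factor) and YY1.

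Promoters of the genes are shown first, as a description of the genes, and their part in any drug difference was not tested. RefSeq promoters (GRCm38.p6; 250 bases before to 50 after a start) were found for 65 of the 74 genes, 71 promoters in all. A set of 3 short runs was searched on both strands: GCGCATGCG, the core of the NRF1 site, CCGGAAG, the core of the ETS site bound by GABPA, and AAGATGGCG, the core of the YY1 site. The ETS core was found in 33.8% of the promoters of these genes, against 8.86% of all 32851 promoters and 11.6% of the 21263 promoters of protein-coding genes. The NRF1 core was found in 9.86%, against 1.75% and 2.35%. The YY1 core was also found in 9.86%, against 1.40% and 1.83%. At least 1 of the 3 runs occurred in 47.9%, against 11.4% and 14.8%. Base composition differed as well: the median GC content was 58.7% in these promoters, 52.7% in all and 56.3% in those of protein-coding genes. The 250 bases before the start are printed for 5 genes, with matches to the NRF1 or ETS core in capitals. Mrpl18 (chr17:12916092-12916341 on the minus strand) and Mrps7 (chr11:115603890-115604139 on the plus strand) are the genes that passed the test in most comparisons. Mrps18b (chr17:35916441-35916690 on the minus strand) and Mrpl32 (chr13:14613038-14613287 on the minus strand) carry the NRF1 core and read low after AzaC in arrays labelled pregnant without passing the test, and Mrpl9 (chr3:94443086-94443335 on the plus strand) carries it and had the highest difference after either drug in those arrays.
Mrpl18: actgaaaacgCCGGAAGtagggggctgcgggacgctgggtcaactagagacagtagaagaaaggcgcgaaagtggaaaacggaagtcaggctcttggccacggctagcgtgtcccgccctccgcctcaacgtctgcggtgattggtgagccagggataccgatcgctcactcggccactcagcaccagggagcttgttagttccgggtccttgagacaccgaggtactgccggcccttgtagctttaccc
Mrps7: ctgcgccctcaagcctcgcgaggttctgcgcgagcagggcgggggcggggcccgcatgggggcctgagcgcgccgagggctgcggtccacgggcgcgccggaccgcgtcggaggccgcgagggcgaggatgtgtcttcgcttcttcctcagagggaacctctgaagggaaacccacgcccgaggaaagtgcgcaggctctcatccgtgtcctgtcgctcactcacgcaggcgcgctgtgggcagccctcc
Mrps18b: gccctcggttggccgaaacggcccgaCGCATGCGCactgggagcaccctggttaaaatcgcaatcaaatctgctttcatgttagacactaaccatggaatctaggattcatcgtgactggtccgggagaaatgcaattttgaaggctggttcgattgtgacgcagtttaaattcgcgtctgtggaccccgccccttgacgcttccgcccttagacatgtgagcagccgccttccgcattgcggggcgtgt
Mrpl32: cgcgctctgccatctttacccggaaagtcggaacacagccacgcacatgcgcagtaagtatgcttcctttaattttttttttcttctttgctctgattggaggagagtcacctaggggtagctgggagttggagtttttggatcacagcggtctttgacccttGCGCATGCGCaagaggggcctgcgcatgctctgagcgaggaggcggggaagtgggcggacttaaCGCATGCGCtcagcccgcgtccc
Mrpl9: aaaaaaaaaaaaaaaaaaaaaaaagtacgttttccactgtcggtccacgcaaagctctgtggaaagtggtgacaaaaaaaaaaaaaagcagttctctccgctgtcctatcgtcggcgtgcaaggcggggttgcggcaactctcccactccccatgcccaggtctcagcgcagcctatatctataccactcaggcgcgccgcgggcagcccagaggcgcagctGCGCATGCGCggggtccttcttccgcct
Counted in bases from the start, the ETS match of Mrpl18 begins at -240 and the NRF1 match of Mrps18b at -224. Overlapping NRF1 matches begin at -87 and -86 in Mrpl32, with another at -23, and at -28 and -27 in Mrpl9. Matches written CGCATGCGC are the NRF1 core on the opposite strand, and Mrps18b has a further ETS match after the start, outside the printed bases. None of the 3 runs is in the window of Mrps7.

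In the arrays labelled pregnant, the median difference between AzaC and PBS was -0.54 over the 24 genes with an ETS match in the window and -0.39 over the 41 without. For the NRF1 core these medians were -0.67 over 7 genes and -0.42 over 58, and for the YY1 core -0.28 over 7 and -0.44 over 58. All 6 medians lay below 0. After VPA in arrays labelled pregnant, the medians with and without a match were -0.111 and -0.112 for the ETS core. They were -0.07 and -0.13 for the NRF1 core, and -0.18 and -0.10 for the YY1 core. Whether a match bears on the difference was not tested. Mrpl9 and Mrpl32, both with NRF1 matches close to the start, differed by 0.52 and -0.67. The factors themselves did not pass the test after AzaC: Nrf1 differed by 0.05 (adjusted p = 0.92), Gabpa by 0.50 (adjusted p = 0.337) and Yy1 by 0.39 (adjusted p = 0.286).

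Before the comparisons, 3 facts of the arrays bear on what follows. Milk-protein transcripts were at the top of the scale whatever the stage label: Csn2 (beta-casein) read at least 13.69 and Wap (whey acidic protein) at least 13.41 on every array, and with PBS they differed between the labels by -0.01 and -0.02, so the stage labels are used here as labels only. The difference between 3-prime and 5-prime control probe sets of Gapdh, a sign of shortened RNA or cRNA, lay between -0.17 and 0.47 on 12 arrays. It was 1.23 on virgin PBS replicate 2, 0.85 on pregnant AzaC replicate 1 and 0.82 on pregnant VPA replicate 3. The same difference for Actb was 1.44, 0.46 and 1.2 on these arrays. It lay between 0.1 and 0.68 on the other 12, so Actb did not set pregnant AzaC replicate 1 apart. Skeletal muscle genes read high, with a mean level per gene from 10.69 to 13.40 over the arrays, although the cells are labelled as epithelium, and luminal epithelial markers read from 11.38 to 12.52. No marker of any cell type examined was listed at 0 on any array.

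The probe sets of the 74 genes gave mean levels from 6.84 (Mrpl40) to 11.18 (Mrpl52). Mrps6 and Mrpl57 followed Mrpl52, and Mrps25 and Mrpl33 stood just above Mrpl40. Signals of different probe sets depend on their probes, so this order is not an order of transcript abundance. Each gene was therefore set against its own mean over the 15 arrays, and the median over the 74 genes was taken on each array. With PBS, the arrays labelled pregnant lay at 0.15 and 0.13. After AzaC, the arrays labelled pregnant lay at -0.45, -0.25 and -0.31, and all 3 stood below both PBS arrays. After VPA, the arrays labelled pregnant lay at -0.31, 0.02 and 0.29, wider apart than the arrays of any other group. Among arrays labelled virgin, PBS read -0.28 and 0.29, AzaC 0.00, 0.09 and 0.09, and VPA 0.18 and 0.36. The virgin PBS arrays thus lay on opposite sides of all virgin AzaC arrays, while the median over all genes stayed between -0.07 and 0.10 on every array. Between the highest and lowest arrays within a group, the Gapdh difference ran with the median of the 74 genes for virgin PBS (1.23 against -0.06) and pregnant VPA (0.82 against -0.17). Among pregnant AzaC arrays the array with the highest Gapdh difference had the lowest median. The part of RNA quality in these spreads was not tested.

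**Figure D1:**
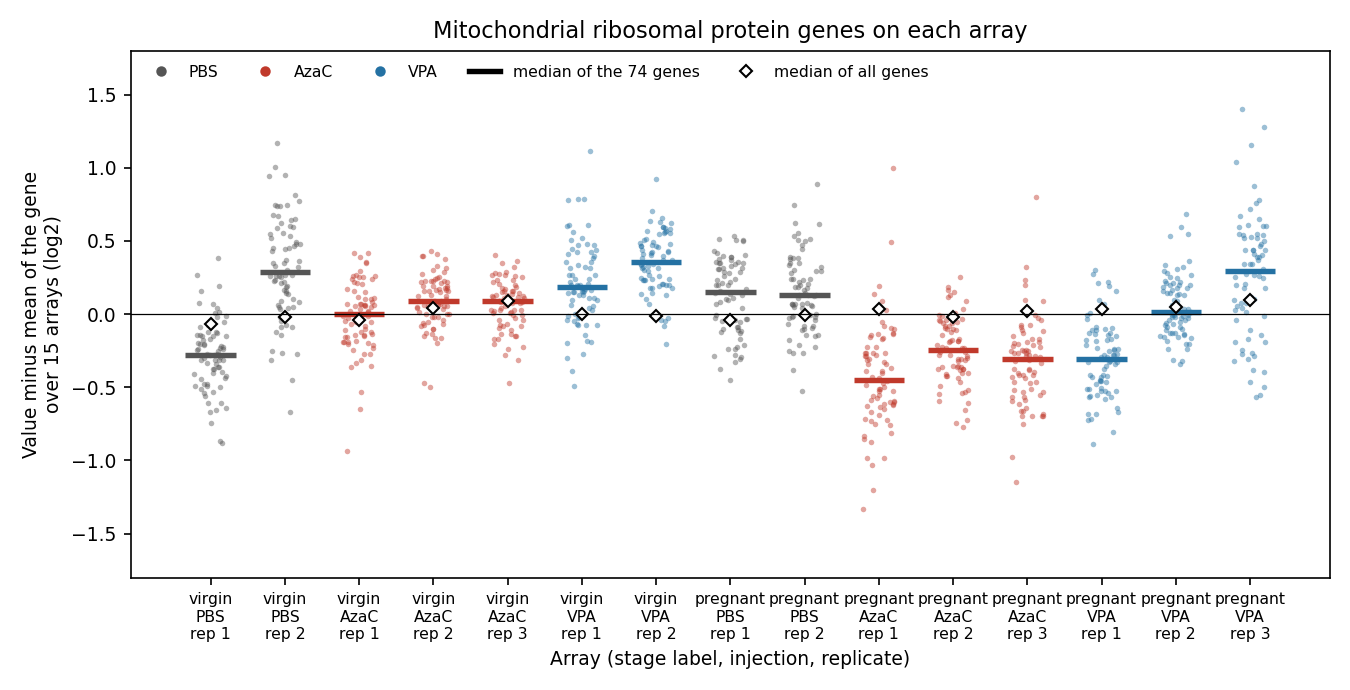
Value of each of the 74 mitochondrial ribosomal protein genes on each array minus its own mean over the 15 arrays (y axis, log2), by array (x axis). Points are genes, coloured by injection, thick lines their median and diamonds the median of all 12394 genes. The 3 pregnant AzaC arrays have medians from -0.45 to -0.25, below both pregnant PBS arrays at 0.15 and 0.13, while the virgin PBS arrays lie apart at -0.28 and 0.29.

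Most mitochondrial ribosomal protein transcripts read lower after AzaC than after PBS in the arrays labelled pregnant. Compared with PBS, 67 of the 74 genes had a difference below 0, against 46.7% of all genes, and the median was -0.42 against 0.04 over all genes. With limma and Benjamini-Hochberg adjustment over all 12394 genes, 6 fell (Mrpl18, Mrps7, Mrpl37, Mrps25, Mrps21 and Mrpl46) and 0 rose at an adjusted p under 0.05. Those 6 are 8.11% of the genes, against 3.81% of all genes called lower and 3.76% called higher. All 3 AzaC arrays lay below both PBS arrays for 49 genes, or 66.2%, where 20.9% of all genes did so. They lay above both PBS arrays for Mrpl9 and Mrpl24, or 2.7%, where 23.5% of all genes did so. In bulk samples such as these, fewer cells of a type and less RNA per cell cannot be told apart.

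Differences below 0 made up most of both subunits. Of 49 large-subunit genes, 44 were below 0 with a median of -0.39, and 3 passed the test. Of 25 small-subunit genes, 23 were below 0 with a median of -0.54, and 3 passed. Calls were 6.12% of large-subunit and 12% of small-subunit genes, where 3.81% of all genes were called lower and 46.7% were below 0. Genes classed as having a bacterial homologue had a median of -0.41 (3 of 43, or 6.98%, fell). Genes classed as having none had a median of -0.52 (3 of 28, or 10.7%, fell). The difference between these classes was not tested.

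Mrpl18, a large-subunit protein of the family that binds ribosomal RNA of the central protuberance, read 8.95 and 8.92 with PBS and 7.79, 8.14 and 8.0 with AzaC in arrays labelled pregnant. The AzaC arrays were well below the PBS pair, which differed by little. The difference was -0.96 ± 0.19 (SE, adjusted p = 0.0177), or 51.5% of the PBS level. Mrps7, which lies in the head of the small subunit on the path of the mRNA, read 9.03 and 8.73 with PBS and 7.55, 8.11 and 7.78 with AzaC. Its groups did not overlap, and AzaC replicate 2 was the nearest to PBS. The difference was -1.07 ± 0.21 (SE, adjusted p = 0.0178).

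Mrps25, a small-subunit protein without a bacterial counterpart, read 7.44 and 7.55 with PBS and 5.94, 6.55 and 6.23 with AzaC. The difference was -1.26 ± 0.29 (SE, adjusted p = 0.0283), the largest among the genes that passed. Its 3 probe sets went different ways, because the other two, which read lower, differed by -0.27 and 0.58. Mrpl37, a large-subunit protein found in mitochondria only, read 7.57 and 7.54 with PBS and 6.59, 6.79 and 6.69 with AzaC. Both groups were tight and did not overlap, and the difference was -0.87 ± 0.20 (SE, adjusted p = 0.0282). The Mrpl37 probe set carries the manufacturer's mark for probes that can match several transcripts.

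Mrps21, a small-subunit protein with a bacterial homologue, read 9.87 and 9.58 with PBS and 8.91, 9.20 and 9.05 with AzaC. The difference was -0.67 ± 0.18 (SE, adjusted p = 0.0416). Mrpl46, another large-subunit protein without a bacterial counterpart, read 8.89 and 8.94 with PBS and 7.73, 8.48 and 7.94 with AzaC. The difference was -0.87 ± 0.24 (SE, adjusted p = 0.0488), the smallest margin of the 6. For both genes every AzaC array lay below every PBS array.

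The lowest estimate of all belonged to a gene that did not pass. Mrpl12, a protein of the flexible stalk of the large subunit that also binds mitochondrial RNA polymerase, read 9.78 and 9.90 with PBS and 8.60, 8.82 and 8.20 with AzaC. The difference was -1.30 ± 0.42 (SE, adjusted p = 0.0816). The gene was spread within other groups, where the virgin PBS arrays read 8.87 and 10.29 and the pregnant VPA arrays 8.46, 9.19 and 9.87. Mrpl28, also of the large subunit, was the third lowest at -1.11 (adjusted p = 0.135). At the base of the stalk, Mrpl11 differed by -0.38 (adjusted p = 0.587), with its 3 other probe sets at -0.83, -0.44 and -0.09, and Mrpl10, which anchors the stalk, by -0.09 (adjusted p = 0.803).

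Of the remaining genes of a fixed set picked by place in the ribosome, Mrps22, a small-subunit protein without a bacterial counterpart, differed by -1.03 (adjusted p = 0.11). Mrps12, at the decoding centre, differed by -0.54 (adjusted p = 0.315), Mrps16 by -0.51 (adjusted p = 0.208) and Mrps5 by -0.40 (adjusted p = 0.382). Of the 3 copies of the S18 protein, which occupy different places on the ribosome, Mrps18b differed by -0.83 (adjusted p = 0.0735), Mrps18c by -0.79 (adjusted p = 0.266) and Mrps18a, the large-subunit copy, by -0.15 (adjusted p = 0.712). Mrpl44, which resembles an RNase, differed by -0.39 (adjusted p = 0.286). Mrpl45, which faces the inner membrane at the exit of the peptide tunnel, differed by 0.07 (adjusted p = 0.846) and Mrpl3, at the core of the large subunit, by 0.14 (adjusted p = 0.794).

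A difference above 0 after AzaC was found for 7 genes, and the 3 highest were Mrpl9, Mrps9 and Mrpl24. Mrpl9 read 9.31 and 9.49 with PBS and 10.25, 9.75 and 9.75 with AzaC. All 3 AzaC arrays were higher, but the difference of 0.52 ± 0.37 (SE, adjusted p = 0.413) did not pass. Mrps9 differed by 0.42 (adjusted p = 0.616) and Mrpl24 by 0.33 (adjusted p = 0.359), and for Mrps9 the AzaC arrays, at 8.65, 7.10 and 8.45, spread around the PBS values of 7.32 and 7.97.

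The calls depended on single arrays. Without any 1 of the 5 arrays compared, the median difference stayed between -0.48 and -0.40, but 0 genes passed without pregnant AzaC replicate 1, AzaC replicate 3, PBS replicate 1 or PBS replicate 2, and 10 passed without AzaC replicate 2. With all arrays 938 genes of the whole table were called, between 14 and 177 without the first 4 of these and 1335 without AzaC replicate 2. With the 3-prime minus 5-prime difference of Gapdh and Actb as a covariate, 16 genes fell and 0 rose, and calls over the whole table went from 938 to 1578. Of the 53 probe sets of these genes that were not used, 40 were below 0 with a median of -0.33. Among the 33 genes with several probe sets, 9 had probe sets of opposite sign.

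**Figure D2:**
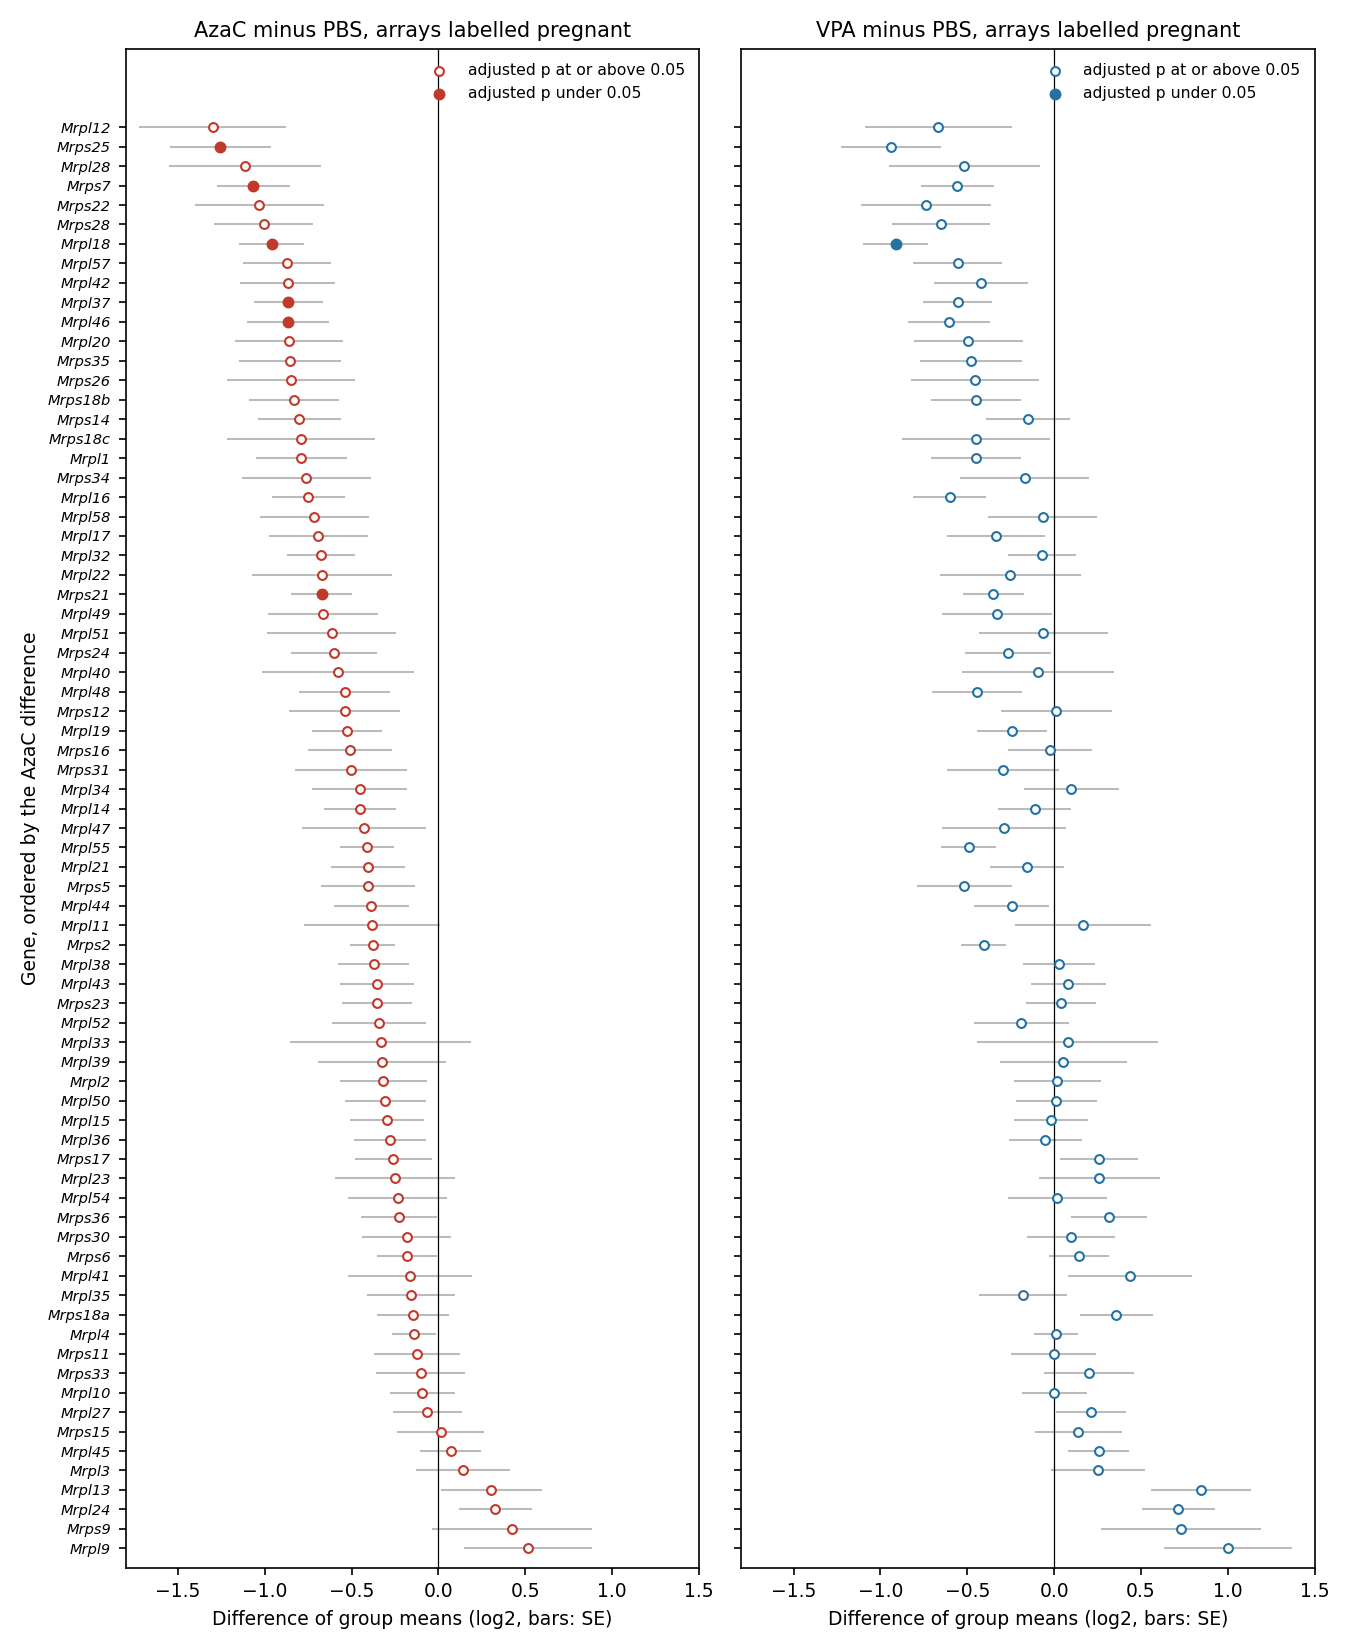
Difference of group means from PBS (x axis, log2, bars: SE) in arrays labelled pregnant for each of the 74 genes (y axis, ordered by the AzaC difference), AzaC on the left and VPA on the right. Filled points had an adjusted p under 0.05: 6 genes with AzaC and Mrpl18 with VPA. With AzaC 67 genes lie below 0, and with VPA 45.

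After VPA in arrays labelled pregnant, differences lay on both sides of 0. Against PBS, 45 of the 74 genes were below 0 (60.8%, against 45.4% of all genes), with a median of -0.10 against 0.06 over all genes. Only Mrpl18 fell and 0 genes rose. This is 1.35% of the genes, below the 2.34% of all genes called lower and the 3.64% called higher. The VPA arrays lay wholly below PBS for 18 genes, or 24.3%, against 17.6% of all genes, and wholly above for 4, or 5.41%, against 25.7%. The VPA median changed sign with the array left out, being 0.04 without VPA replicate 1 and -0.23 without VPA replicate 3.

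Mrpl18 read 7.89, 8.26 and 7.92 with VPA, all below the PBS arrays at 8.95 and 8.92. The difference was -0.91 ± 0.19 (SE, adjusted p = 0.0246), close to that with AzaC, with which it shares the PBS arrays. It did not pass without PBS replicate 1 or 2 or without VPA replicate 1 or 3. Mrps25 gave the lowest estimate, -0.94 ± 0.29 (SE, adjusted p = 0.0787), with VPA arrays at 6.28, 6.86 and 6.53. Mrpl12 differed by -0.67 (adjusted p = 0.363), Mrps22 by -0.74 (adjusted p = 0.248) and Mrps5 by -0.52 (adjusted p = 0.267).

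The 4 highest estimates after VPA were for Mrpl9, Mrpl13, Mrps9 and Mrpl24. Mrpl9 read 9.95, 10.09 and 11.16, all above PBS, and differed by 1.00 ± 0.37 (SE, adjusted p = 0.126). Mrpl13 read 10.63, 10.86 and 10.67 against 9.95 and 9.80 with PBS and differed by 0.85 (adjusted p = 0.107), but its other 2 probe sets differed by 0.02 and -0.03. Mrps9 differed by 0.73 (adjusted p = 0.36) and Mrpl24 by 0.72 (adjusted p = 0.0679). Both drugs were set against the same 2 PBS arrays, so differences from PBS are not independent between them. Over the 74 genes, 45 were below 0 with both drugs, 22 were below 0 with AzaC and above 0 with VPA, and 7 were above 0 with both.

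In the direct comparison of the drugs, the difference of means uses no PBS array. Its SE and p-values rest on the spread within all 6 groups, PBS included. In arrays labelled pregnant, 70 of the 74 genes read lower with AzaC than with VPA, with a median of -0.34 against -0.03 over all genes. That median was -0.50 without pregnant VPA replicate 1 and -0.21 without pregnant VPA replicate 3. None of the 74 passed, nor did any gene of the table (0%). At an unadjusted p under 0.05, 11 were lower with AzaC, which is 14.9% of the genes, where 2.90% of all genes were lower and 3.78% passed in either direction. Mrpl32, whose product is matured inside mitochondria before the large subunit forms, had the smallest p. It read 8.27, 8.33 and 8.35 with AzaC and 8.62, 8.98 and 9.16 with VPA, without overlap, and differed by -0.60 ± 0.18 (SE, adjusted p = 1).

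**Figure D3:**
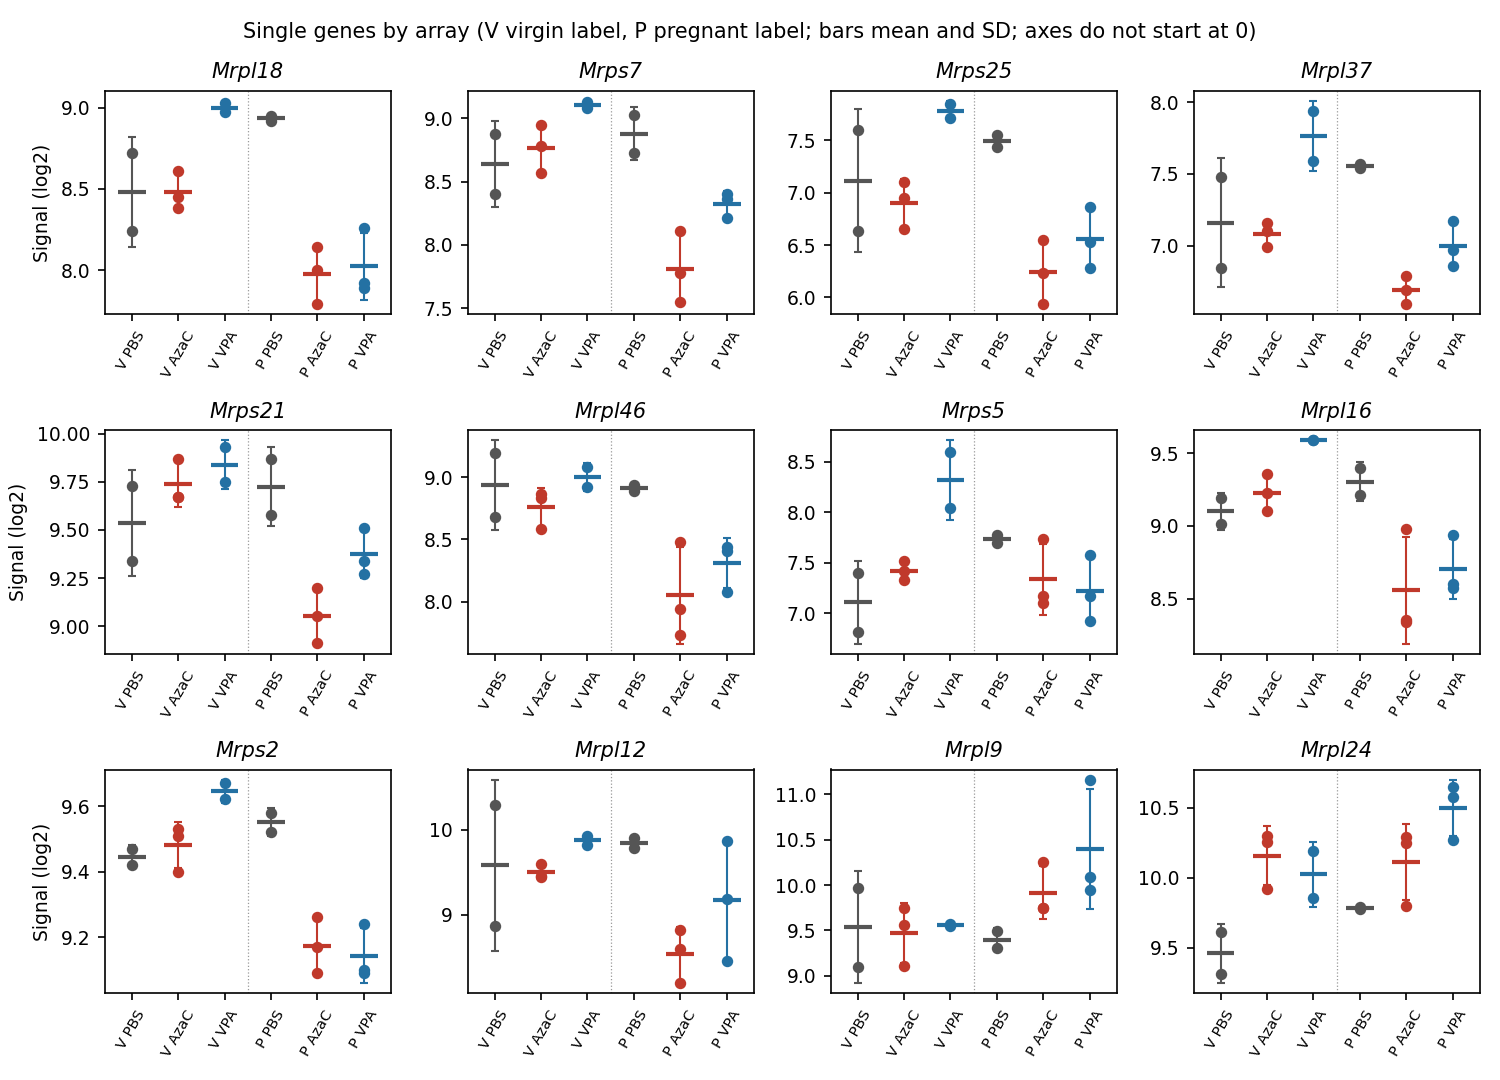
Signal (y axis, log2, axes do not start at 0) on each array for 12 mitochondrial ribosomal protein genes in the 6 groups (x axis; V virgin label, P pregnant label). Points are arrays, horizontal lines group means and bars SD, with 2 or 3 arrays per group. Mrpl18 is low in both pregnant drug groups, Mrpl12 is spread from 8.87 to 10.29 in virgin PBS, and Mrpl9 reaches 11.16 on 1 pregnant VPA array.

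In arrays labelled virgin, no mitochondrial ribosomal protein gene passed after either drug. With AzaC the median was 0.04 (0.06 over all genes) and 31 genes were below 0. None of the 12394 genes passed (0%), and 1 of the 74 was higher at an unadjusted p under 0.05, where 4.26% of all genes were higher and 6.85% passed in either direction. That gene was Mrpl24, which read 9.31 and 9.61 with PBS and 9.92, 10.30 and 10.26 with AzaC, a difference of 0.70 ± 0.21 (SE, adjusted p = 0.6). With VPA 67 of the 74 genes were above 0 and the median was 0.28 (0.05 over all genes). 0 passed, where 0.00807% of all genes did, and 7 were higher at an unadjusted p under 0.05, which is 9.46% of the genes, where 3.65% of all genes were higher and 6.87% passed in either direction. Both VPA arrays lay above both PBS arrays for 25 genes, or 33.8%, where 20.8% of all genes did so. Mrps5 had the highest difference, 1.21 ± 0.30 (SE, adjusted p = 0.421): it read 7.40 and 6.82 with PBS and 8.60 and 8.04 with VPA. The dimmer probe set of Mrps5 differed by 0.38.

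These virgin medians rested on which PBS array was kept. Without virgin PBS replicate 1 the VPA median was -0.04, and without replicate 2, the array with the highest Gapdh difference, it was 0.56. For AzaC the corresponding medians were -0.23 and 0.36. Between the drugs, 61 of the 74 genes were lower with AzaC than with VPA, against 47.7% of all genes. The median was -0.25 (0.015 over all genes), and it was -0.16 without virgin VPA replicate 2. 0 passed, of these genes or of all genes (0%). At an unadjusted p under 0.05, 5 were lower with AzaC, which is 6.76%, where 2.49% of all genes were lower and 6.56% passed in either direction.

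The stage labels were also compared within each injection. With PBS the median difference between pregnant and virgin labels was 0.13, against 0.025 over all genes. Of the 74 genes 0 passed (0.00807% of all genes did) and 2 were higher at an unadjusted p under 0.05. These 2 are 2.7% of the genes, where 2.23% of all genes were higher and 4.2% passed in either direction. The PBS median was -0.22 without virgin PBS replicate 1 and 0.41 without replicate 2. After AzaC 70 of the 74 were lower in arrays labelled pregnant, with a median of -0.40 against 0.02 over all genes. Mrps7 fell and 0 rose, where 1.11% of all genes were called lower and 0.121% higher. Mrps7 read 8.95, 8.78 and 8.57 in arrays labelled virgin, all above the pregnant AzaC arrays, and differed by -0.95 ± 0.19 (SE, adjusted p = 0.0396). No gene of the 74 passed without pregnant AzaC replicate 1 or 3 or without any 1 of the virgin AzaC arrays, and 6 passed (5 lower and 1 higher) without pregnant AzaC replicate 2. Over the whole table, calls went from 152 to at most 7 in the former fits and to 501 in the latter.

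After VPA 7 genes were lower in arrays labelled pregnant than in arrays labelled virgin and 0 were higher. These 7 are 9.46% of the genes, where 2.96% of all genes were called lower and 3.70% higher. They were Mrpl16, Mrpl18, Mrpl37, Mrps2, Mrps25, Mrps5 and Mrps7. The median of all 74 was -0.31 with 59 below 0, against a median of 0.06 and 45.4% below 0 over all genes. The median of the 74 was -0.12 without pregnant VPA replicate 1, -0.46 without pregnant VPA replicate 3 and -0.19 without virgin VPA replicate 2. Mrpl18 read 9.03 and 8.97 in virgin VPA arrays and differed by -0.98 ± 0.19 (SE, adjusted p = 0.0202). Mrps5, a small-subunit protein by the entry of the mRNA channel, read 8.60 and 8.04 in virgin VPA arrays and 7.58, 7.17 and 6.92 in pregnant VPA arrays, and differed by -1.10 ± 0.27 (SE, adjusted p = 0.0392).

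Mrpl16, close to the peptidyl transferase centre, read 9.59 on both virgin VPA arrays and 8.60, 8.94 and 8.57 on the pregnant ones, a difference of -0.89 ± 0.21 (SE, adjusted p = 0.0346). Mrps2, which joins the head and body of the small subunit, had the smallest difference of those called, -0.50 ± 0.13 (SE, adjusted p = 0.0443), with values of 9.62 and 9.67 against 9.10, 9.24 and 9.09. For each of the 7 genes every pregnant VPA array lay below every virgin VPA array. Such separation was found for 26 of the 74 genes, or 35.1%, where 19.8% of all genes showed it. The reverse held for 4, or 5.41%, where 26.2% of all genes showed it. Mrps25 differed by -1.22 (adjusted p = 0.0336), with its other probe sets at -0.45 and 0.35, Mrps7 by -0.78 (adjusted p = 0.0488) and Mrpl37 by -0.77 (adjusted p = 0.0447). The dimmer probe sets of Mrps2 and Mrps5 also lay below 0, at -0.92 and -0.66. With 1 of the 5 arrays left out, 1 gene passed without pregnant VPA replicate 2, and 0 passed without pregnant VPA replicate 1 or 3 or without virgin VPA replicate 1 or 2. Calls over the whole table fell in these fits as well, from 825 to between 4 and 258. With the 3 arrays of high Gapdh difference left out, 2 of the 74 and 242 of all genes passed. Over all comparisons 9 of the 74 genes, or 12.2%, passed at least once, where 11.3% of all genes did. Mrpl18 and Mrps7 passed in 3 comparisons each.

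Whether a drug acted differently under the 2 labels was tested with the interaction. For AzaC the median interaction was -0.51 (0.002 over all genes) and 67 of the 74 were below 0, against 49.8% of all genes. However, 0 passed, of these or of all genes (0%). At an unadjusted p under 0.05, 15 were below 0, which is 20.3% of the genes, where 8.17% of all genes were below 0 and 12.8% passed in either direction. Mrps7 had the smallest p, with an interaction of -1.19 ± 0.30 (SE, adjusted p = 0.161). For VPA the median was -0.38 (0.045 over all genes) and 59 of the 74 were below 0, against 47.5% of all genes. With VPA 0 passed (0.315% of all genes did), while 14 were below 0 at an unadjusted p under 0.05. These 14 are 18.9% of the genes, where 9.00% of all genes were below 0 and 18.9% passed in either direction. Mrpl18 had the smallest p, with an interaction of -1.43 ± 0.28 (SE, adjusted p = 0.0568). Without virgin PBS replicate 1 the median interactions were -0.24 for AzaC and -0.06 for VPA, and without virgin PBS replicate 2 they were -0.76 and -0.68.

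The machinery around the ribosome was read from lists chosen with earlier results of these data known. Of 4 measured mitochondrial ribosome proteins whose symbols lack the Mrp prefix, all were below 0 after AzaC in arrays labelled pregnant. Their median was -0.79 and 2 fell (50%), where 3.81% of all genes were called lower. Ptcd3, a small-subunit protein with RNA-binding repeats, read 9.70 and 9.80 with PBS, 8.62, 8.68 and 8.76 with AzaC and 8.62, 8.92 and 8.36 with VPA. It fell after both drugs, with differences of -1.06 ± 0.17 (SE, adjusted p = 0.0115) for AzaC and -1.12 ± 0.17 (SE, adjusted p = 0.0115) for VPA. It was also the 1 ribosomal protein gene of the mitochondrion whose VPA interaction passed (-1.53 ± 0.26, SE, adjusted p = 0.0444). Its virgin VPA arrays read 9.48 and 9.58 and its virgin PBS arrays 8.98 and 9.26, a difference of 0.41 (adjusted p = 0.731). Gadd45gip1, which sits on the large subunit, fell by 0.97 (adjusted p = 0.0371) with AzaC. Dap3 differed by -0.25 (adjusted p = 0.416) and Chchd1 by -0.61 (adjusted p = 0.525).

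Lists of genes that act on the ribosome or its messages had medians closer to 0. After AzaC in arrays labelled pregnant, 0 of 10 translation factors passed, with a median of -0.24. The elongation factor Gfm1 differed by -0.60 (adjusted p = 0.12) and Mtfmt, which formylates the initiator tRNA, by 0.40 (adjusted p = 0.169). Of 20 assembly and rRNA modification genes 1 fell (5%, where 3.81% of all genes were called lower), with a median of -0.04. Afg3l2, a subunit of the protease that matures the Mrpl32 product, fell by 0.71 (adjusted p = 0.0326). Of 11 mitochondrial aminoacyl-tRNA synthetase genes 0 passed (median -0.07), with Qrsl1 at -0.82 (adjusted p = 0.152) and Iars2 at 0.75 (adjusted p = 0.156). Of 13 genes of mitochondrial DNA and RNA synthesis 0 passed (median -0.11), the nearest being Trmt10c, a subunit of mitochondrial RNase P, at -0.64 (adjusted p = 0.0539) and Pnpt1 at -0.68 (adjusted p = 0.116). Of 9 regulators of mitochondrial biogenesis 0 passed (median 0.02), with the coactivator Pprc1 at -0.83 (adjusted p = 0.121).

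Protein import and the respiratory chain had medians below that of the 74 genes. Of 25 import genes, 24 were below 0 after AzaC in arrays labelled pregnant with a median of -0.72, and 2 fell. Tomm40, the pore of the outer membrane, differed by -1.16 (adjusted p = 0.0233) and Timm8a1 by -0.86 (adjusted p = 0.0342). Of 74 nuclear genes of the respiratory chain and ATP synthase, 72 were below 0 with a median of -0.65, and 13 fell and 0 rose. Of all genes, 46.7% were below 0, 3.81% were called lower and 3.76% higher. Calls over the whole table went from 938 to 177 and 138 without pregnant AzaC replicate 1 and 3. Calls of these lists in those fits are not given here. Atp5g1, for the rotor ring of ATP synthase, differed by -1.41 (adjusted p = 0.0115), Ndufa9 of complex I by -0.74 (adjusted p = 0.0272), Sdhb of succinate dehydrogenase by -1.02 (adjusted p = 0.0285) and Ndufb9 of complex I by -1.05 (adjusted p = 0.0309). The genes of the cytosolic ribosome had a median of -0.20, with 34 of 45 below 0 and 0 called, and Rps27l at -1.34 (adjusted p = 0.051) and Rps10 at -0.57 (adjusted p = 0.0633) came nearest. After VPA in arrays labelled pregnant, the medians were -0.36 for import (Tomm40 fell by 1.19, adjusted p = 0.0251), -0.25 for the respiratory chain (1 fell and 1 rose) and -0.01 for the cytosolic ribosome. With VPA, 2.34% of all genes were called lower and 3.64% higher. Differences between these lists were not tested.

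**Figure D4:**
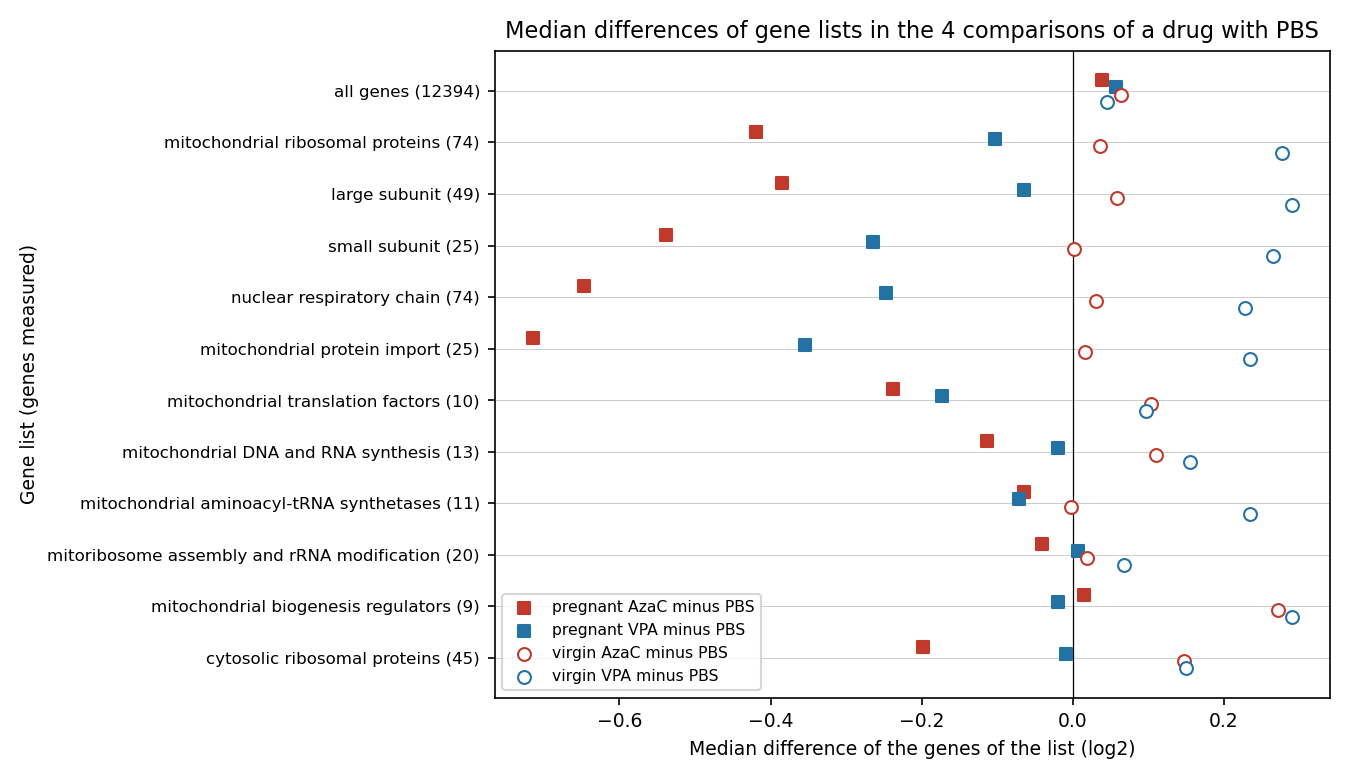
Median difference from PBS (x axis, log2) over the genes of each list (y axis, with the number of genes measured). Squares are arrays labelled pregnant, circles arrays labelled virgin, red AzaC and blue VPA. In pregnant AzaC arrays the mitochondrial ribosomal proteins (-0.42), respiratory chain (-0.65) and import (-0.72) lie left of the cytosolic ribosome (-0.20), and in virgin VPA arrays the median of the 74 genes is 0.28.

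Markers of several cell types also differed between the groups labelled pregnant. Of the markers of dividing cells, 12 of 12 were below 0 with both drugs, 3 fell with AzaC and 2 with VPA, and Mcm5, a replication helicase subunit, differed by -1.99 (adjusted p = 0.0232) with AzaC and by -2.27 (adjusted p = 0.019) with VPA. Of all genes, 3.81% were called lower and 3.76% higher with AzaC, and 2.34% lower and 3.64% higher with VPA. Marker lists are given as the sum of the log2 values of their genes, so ratios of these sums are not fold changes. For dividing cells this sum ranged from 101 to 116 with PBS. It ranged from 75.6 to 97.5 with AzaC and from 78.2 to 94.8 with VPA. The mean per gene ranged from 8.41 to 9.65 with PBS, from 6.30 to 8.12 with AzaC and from 6.52 to 7.90 with VPA. The summed level of 9 endothelial markers ranged from 64.4 to 70.7 with PBS, from 72.7 to 79.5 with AzaC and from 72.6 to 78.9 with VPA, and Cldn5 rose with both drugs. The 9 fibroblast markers ranged from 82.9 to 84.8 with PBS, from 86.5 to 93.9 with AzaC and from 88.8 to 96.2 with VPA, where Dcn rose.

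In the same sums of log2 values, the 10 leukocyte markers ranged from 86.1 to 87.9 with PBS. They ranged from 91.6 to 93.3 with AzaC and from 94.1 to 95.3 with VPA. The 9 luminal epithelial markers lay at 103 with PBS, from 109 to 111 with AzaC and from 110 to 113 with VPA, and Ehf rose with both drugs and Cdh1 with VPA. The 7 muscle markers overlapped between PBS (80.0 to 89.9) and AzaC (81.9 to 93.8), with VPA from 91.5 to 92.8, and 0 passed. The 4 brown adipocyte markers ranged from 34.1 to 35.1 with PBS, from 32.1 to 33.2 with AzaC and from 33.3 to 35.5 with VPA. Of these, Cidea fell by 1.93 (adjusted p = 0.0349) with AzaC. The 7 adipocyte markers ranged from 56.5 to 57.6 with PBS, from 56.9 to 63.7 with AzaC and from 61.1 to 62.6 with VPA. The 9 basal markers ranged from 85.2 to 86.8 with PBS, from 84.2 to 85.9 with AzaC and from 85.3 to 88.85 with VPA. Of the 7 adipocyte and 9 basal markers 0 passed. The part of cell composition in the result was not tested.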

How the data were processed

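The deposited table holds 22690 Affymetrix probe sets on 15 arrays. Its values are read as the authors' log2 signals from their range alone; the base of the logarithm, the summary method and the normalization are not given in the sources used here. Between 2.29 and 2.59% of probe sets on each array are listed at 0. The values were used as deposited. Probe sets were named with the platform annotation, and 3 that name a gene of the rule together with another gene were left out. A model with 6 group means was fitted over all 12394 genes with limma 3.58.1 (R 4.3.3; 9 residual degrees of freedom, moderated), p-values were adjusted by Benjamini-Hochberg, and 11 comparisons used a threshold of 0.05. No filter or floor was applied. Simulated data with known changes were used to check the fit. Named genes are those that passed, the 3 highest and 3 lowest differences after each drug in arrays labelled pregnant, the 3 highest and lowest mean levels, a fixed set by place in the ribosome (of which Mrps5 alone passed, between the labels after VPA), and for other lists up to 4 genes that passed or the 2 of smallest p. Mrpl32, Mrpl24 after VPA, the genes of smallest p where none passed, and Nrf1, Gabpa and Yy1 were chosen after their values were seen. Members and lists were chosen with earlier results of these data known. Same-numbered arrays correlated between -0.17 and 0.33 over 33 pairs in their deviations from group means. Differently numbered pairs were not examined, so this range cannot show whether the numbers mark a pairing. Numbers were not used to pair arrays in the main fit. Alternatives were quantile normalization, median centring, leaving out the dimmest 25% of genes, a floor of 5, the mean of a gene's probe sets, a trended robust variance, a Gapdh and Actb covariate, leaving out 3 arrays of high Gapdh difference, a 1.5-fold minimum, only the arrays compared, a replicate block, and each array left out. Figures were drawn with matplotlib 3.10.9.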

Additional observations from a re-analysis of the deposited data

How the results depend on the processing

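The main limits are 2 or 3 arrays in each group and PBS groups of 2 shared by both drugs. Counts of the 74 genes are given with the share of all genes tested that passed in the same fit, in either direction. For AzaC against PBS in arrays labelled pregnant, the 6 genes that fell (7.57% of all genes passed) became 11 with quantile normalization (9.09%), 13 with arrays centred on their median (8.74%), 14 without the dimmest 25% of genes (15.5%), 14 with a trended robust variance (10.6%) and 16 with the Gapdh and Actb covariate (12.7%). 0 passed with a 1.5-fold minimum (0.00807%) or in a fit of only the arrays compared (0%). For VPA the 1 gene (5.98%) became 2 with quantile normalization (6.15%), median centring (6.39%), the mean of probe sets (5.82%) or the trended variance (8.58%). It became 3 without the dimmest 25% (12.7%) or with the floor (6.58%), and 5 with the covariate (10.5%), of which up to 2 were higher. It became 0 with the 1.5-fold minimum (0.0565%) or only the arrays compared (2.94%). Between the labels after AzaC the 1 gene (1.23%) became 3 without the dimmest 25% (3.35%) or with the trended variance (2.19%), and 4 with the floor (2.08%) or the covariate (3.61%). It became 0 with quantile normalization, the replicate block, without the 3 arrays of high Gapdh difference, with the 1.5-fold minimum or only the arrays compared, where at most 0.516% of all genes passed. Between the labels after VPA the 7 (6.66%) became 4 with the mean of probe sets (6.39%), 2 with the replicate block (1.93%), 12 with the covariate (1 of them higher; 11.5%) and 2 without the 3 arrays (1.95%). They became 8 with quantile normalization (7.07%), 9 with the floor (6.61%) and 10 without the dimmest 25% (13.9%). They became 0 with the 1.5-fold minimum (0.0161%) or only the arrays compared (3.40%). The VPA interaction had 0 genes (0.315%) but 2 without the dimmest 25% (2.86%), with the floor (1.19%), with the trended variance (1.95%) or without the 3 arrays (0.742%), and 3 with the covariate (1.61%). The cause of these changes was not tested. With arrays left out in turn, counts ranged from 0 to 10 for AzaC against PBS, from 0 to 1 for VPA against PBS, from 0 to 6 and from 0 to 1 between the labels after AzaC and VPA, and from 0 to 3 for the VPA interaction; the other 6 comparisons stayed at 0. The replicate block gave 4 genes for AzaC against PBS (3.76%) and 1 for VPA against PBS (1.94%), and changed no other count than those named. With the replicate block the median for AzaC was -0.46. No alternative turned the direction of a gene that had passed.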
